A study of Mus musculus with 4 samples.

Results

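The 9 genes described here, Rora, Maf, Ahr, Gata3, Tbx21, Eomes, Zbtb16, Batf and Irf4, encode lineage transcription factors of intestinal T cells and innate lymphoid cells (ILCs). They were chosen by name and matched by gene ID in both gene expression libraries, and all 9 were found among the 31950 gene IDs that the libraries share. Single cells from the lamina propria of the small intestine were sequenced from 12-week-old mice, with 1 library from WT mice and 1 from A20ZF7 mice, which carry knock-in point mutations in the seventh zinc finger of A20 in every cell and lose its binding to linear (M1) ubiquitin. Each library pooled 2 mice and started from 60000 cells that negative selection had enriched for T cells and ILCs before loading on a droplet kit that reads the 5′ end of transcripts. The mutations leave the A20 gene, Tnfaip3, expressed, so its level in CD8 T-like cells (1447 CPM in WT and 1544 in A20ZF7) does not check the genotype label.

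Lineage transcription factors bind DNA and keep a lymphocyte in its effector program. T-bet (Tbx21) and GATA3 stand for type 1 and type 2 responses, RORα (Rora), c-MAF (Maf) and the aryl hydrocarbon receptor (Ahr) act in type 3 cells and ILCs, and PLZF (Zbtb16) marks innate-like T cells and ILC precursors. EOMES is the second T-box factor of cytotoxic cells, and BATF and IRF4 bind DNA together downstream of the antigen receptor, where they open the sites that the other factors use. In the small intestine the same factors serve T cells and ILCs, so each gene was followed through every lymphocyte class.

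The WT library held 14734 cells with a median of 1059 unique molecular identifiers (UMIs, each 1 captured transcript) and the A20ZF7 library 43218 cells with a median of 853. Clustering without the 9 genes named 5255 WT and 20962 A20ZF7 lymphocytes, with medians of 874 and 716 UMIs, in 9 classes: Th17-like, Treg-like, CD8 T-like, γδ T-like, naive or central memory T-like, dividing, ILC2-like, ILC3-like and Ncr1 innate cells, the last with Ncr1, Klrb1b and Xcl1 among its leading genes. Class sizes were uneven, with 65 WT against 4583 A20ZF7 Th17-like cells and 1108 WT against 139 A20ZF7 Ncr1 innate cells. ILC3-like cells were 217 in WT and 3057 in A20ZF7. Ncr1 innate cells scored on the marker lists of ILC3s and of ILC1 or NK cells, so ILC3s can lie in either class. Whether ILC3-like ratios compare the same kind of cells was not tested. A level is given in CPM, the UMIs of a gene per 1000000 UMIs of its class and library, and values in parentheses are 95% intervals, which measure counting error and nothing else. With 1 library per genotype there is no test between genotypes, and the 2 WT mice, told apart by hashtags 7 and 8, give the only spread between animals. Of the 5255 WT lymphocytes, 1980 were assigned to the mouse of hashtag 7 and 1801 to that of hashtag 8. The rest had no call, so both mice can lie on the same side of the WT value. Ratios against 1 WT mouse leave out these cells as well. Cells of stromal clusters (7478 WT and 15551 A20ZF7, with medians of 1137 and 1024 UMIs) and near-empty barcodes of 10 to 50 UMIs serve as background. In all, 913 cell barcodes occurred in both libraries, 6.20% of the WT and 2.11% of the A20ZF7 cells, and WT doublets were removed by hashtags (2572 barcodes) while no doublets were removed from A20ZF7.

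Promoters were read for 6 of the 9 genes in the RefSeq table (GRCm38.p6), and not for Maf, Ahr and Zbtb16. The 4 shown are those of the T-box genes, whose ratios between the libraries lay on opposite sides of 1, and of the partners Batf and Irf4. Each line gives the 250 bases before the start site, 5′ to 3′ on the strand of the gene, with motif matches in capitals: Tbx21 at chr11:97115332-97115581 on the minus strand, Eomes at chr9:118477939-118478188, Batf at chr12:85686470-85686719 and Irf4 at chr13:30748983-30749232, these 3 on the plus strand.
Tbx21: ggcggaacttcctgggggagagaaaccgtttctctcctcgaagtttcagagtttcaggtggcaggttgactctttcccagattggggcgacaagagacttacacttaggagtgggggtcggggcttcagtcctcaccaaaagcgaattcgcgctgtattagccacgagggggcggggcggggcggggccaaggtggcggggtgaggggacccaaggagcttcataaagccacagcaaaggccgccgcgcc
Eomes: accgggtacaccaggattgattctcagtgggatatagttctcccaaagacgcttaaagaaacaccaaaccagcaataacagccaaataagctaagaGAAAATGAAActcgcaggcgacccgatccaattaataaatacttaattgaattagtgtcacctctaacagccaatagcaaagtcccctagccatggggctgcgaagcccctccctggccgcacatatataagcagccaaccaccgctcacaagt
Batf: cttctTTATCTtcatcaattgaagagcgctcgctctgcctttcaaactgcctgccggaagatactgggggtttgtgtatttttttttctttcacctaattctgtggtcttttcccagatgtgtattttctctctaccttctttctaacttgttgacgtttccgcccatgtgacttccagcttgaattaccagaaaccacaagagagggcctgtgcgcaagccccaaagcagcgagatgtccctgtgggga
Irf4: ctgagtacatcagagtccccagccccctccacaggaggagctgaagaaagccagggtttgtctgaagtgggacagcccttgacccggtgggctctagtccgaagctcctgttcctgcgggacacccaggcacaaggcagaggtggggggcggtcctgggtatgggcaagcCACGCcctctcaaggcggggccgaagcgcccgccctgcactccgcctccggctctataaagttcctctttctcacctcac
In Eomes the capitals mark an interferon response motif (a pair of GAAA runs with any 2 bases between them) that began 154 bases before the start site, in Batf a GATA motif (AGATAA, read on the opposite strand) 245 bases before it, and in Irf4 a dioxin response core (GCGTG, opposite strand), the element bound by AHR, 80 bases before it. Both strands of all 300 bases from 250 before to 50 after the start were searched in 32851 promoters, of which 3.44% held the interferon response motif, 11.2% the GATA motif and 32.4% the dioxin response core, which Rora held as well. The T-box motif AGGTGTGA (1.28% of all promoters), the AP-1 motif TGANTCA (7.81%), the ROR motif AGGTCA (16.3%) and the κB consensus (8.46%) matched none of the 6. The motifs did not overlap in these promoters, and a match is a run of letters, not a bound site. Tbx21 held no motif that was searched.

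Between the libraries the ratios lay on both sides of 1. A pair with a mean of 50 CPM over both libraries and 20 UMIs in them together is called well counted, though 1 library can carry it past these limits. In such pairs Batf was at least 2-fold higher in A20ZF7 in 3 classes, Maf and Irf4 in 2 and Eomes in 1. Tbx21 was at least 2-fold lower in 1 class and Zbtb16 in 2, and Rora, Ahr and Gata3 were past 2-fold in no class. Irf4 rested on 11 WT UMIs in ILC3-like and 10 A20ZF7 UMIs in Ncr1 innate cells. Zbtb16 rested on 8 A20ZF7 UMIs in Ncr1 innate cells. Of the 81 pairs of a gene and a class, 77 gave a ratio of CPM and 2 a lower bound above 1. Of these, 13 were at least 2-fold higher in A20ZF7, 1 of them as a bound, and 8 at least 2-fold lower, with intervals that left out 1. The 13 include 5 pairs of Eomes outside CD8 T-like cells and Irf4 in Ncr1 innate cells, whose A20ZF7 levels were near those of stromal cells and are not read as expression. When each ratio was divided by that of stromal cells for the same gene, 0 pairs were higher and 25 lower, and 11 pairs turned direction. The intervals behind these counts took the stromal ratio as fixed and left out its counting error. Against the WT mouse of hashtag 8 alone 6 pairs were higher and 6 lower, and against that of hashtag 7 alone 8 and 9. Shares over all genes were not counted for these sets of pairs, so their counts are no result about these factors. Among the 61 pairs with a mean of 50 CPM over both libraries and 20 UMIs in them together, 8 were higher and 3 lower by that measure, while over all genes and classes under the same limits 2.75% of 29163 pairs were higher and 2.05% lower. The 8 higher pairs were Maf in CD8 T-like and ILC3-like cells, Eomes in CD8 T-like cells, Batf in CD8 T-like, γδ T-like and naive or central memory T-like cells, and Irf4 in ILC3-like and Ncr1 innate cells. The 3 lower pairs were Tbx21 in CD8 T-like cells and Zbtb16 in γδ T-like and Ncr1 innate cells. The median log2 ratio was 0.09 over the 61 pairs and -0.0034 over all genes and classes.

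The 2 WT mice were compared in the same way, from fewer UMIs. None of 50 pairs of a gene and a class compared between hashtags 7 and 8 was past 2-fold, against 1.78% of 17945 pairs over all genes. That is near the share over all genes and no result about these factors. The mice held 2067717 and 2045149 lymphocyte UMIs and the libraries 5442558 and 18623473. Intervals between mice are therefore wider, and the count cannot show that mice differ less than libraries. Intervals left out 1 for Rora in ILC2-like cells, with 1719 CPM in the mouse of hashtag 7 and 1562 in that of hashtag 8 (0.909, 0.836–0.988), and for Gata3 in CD8 T-like cells, with 56.3 and 110 CPM (1.96, 1.04–3.82).

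**Figure D1:**
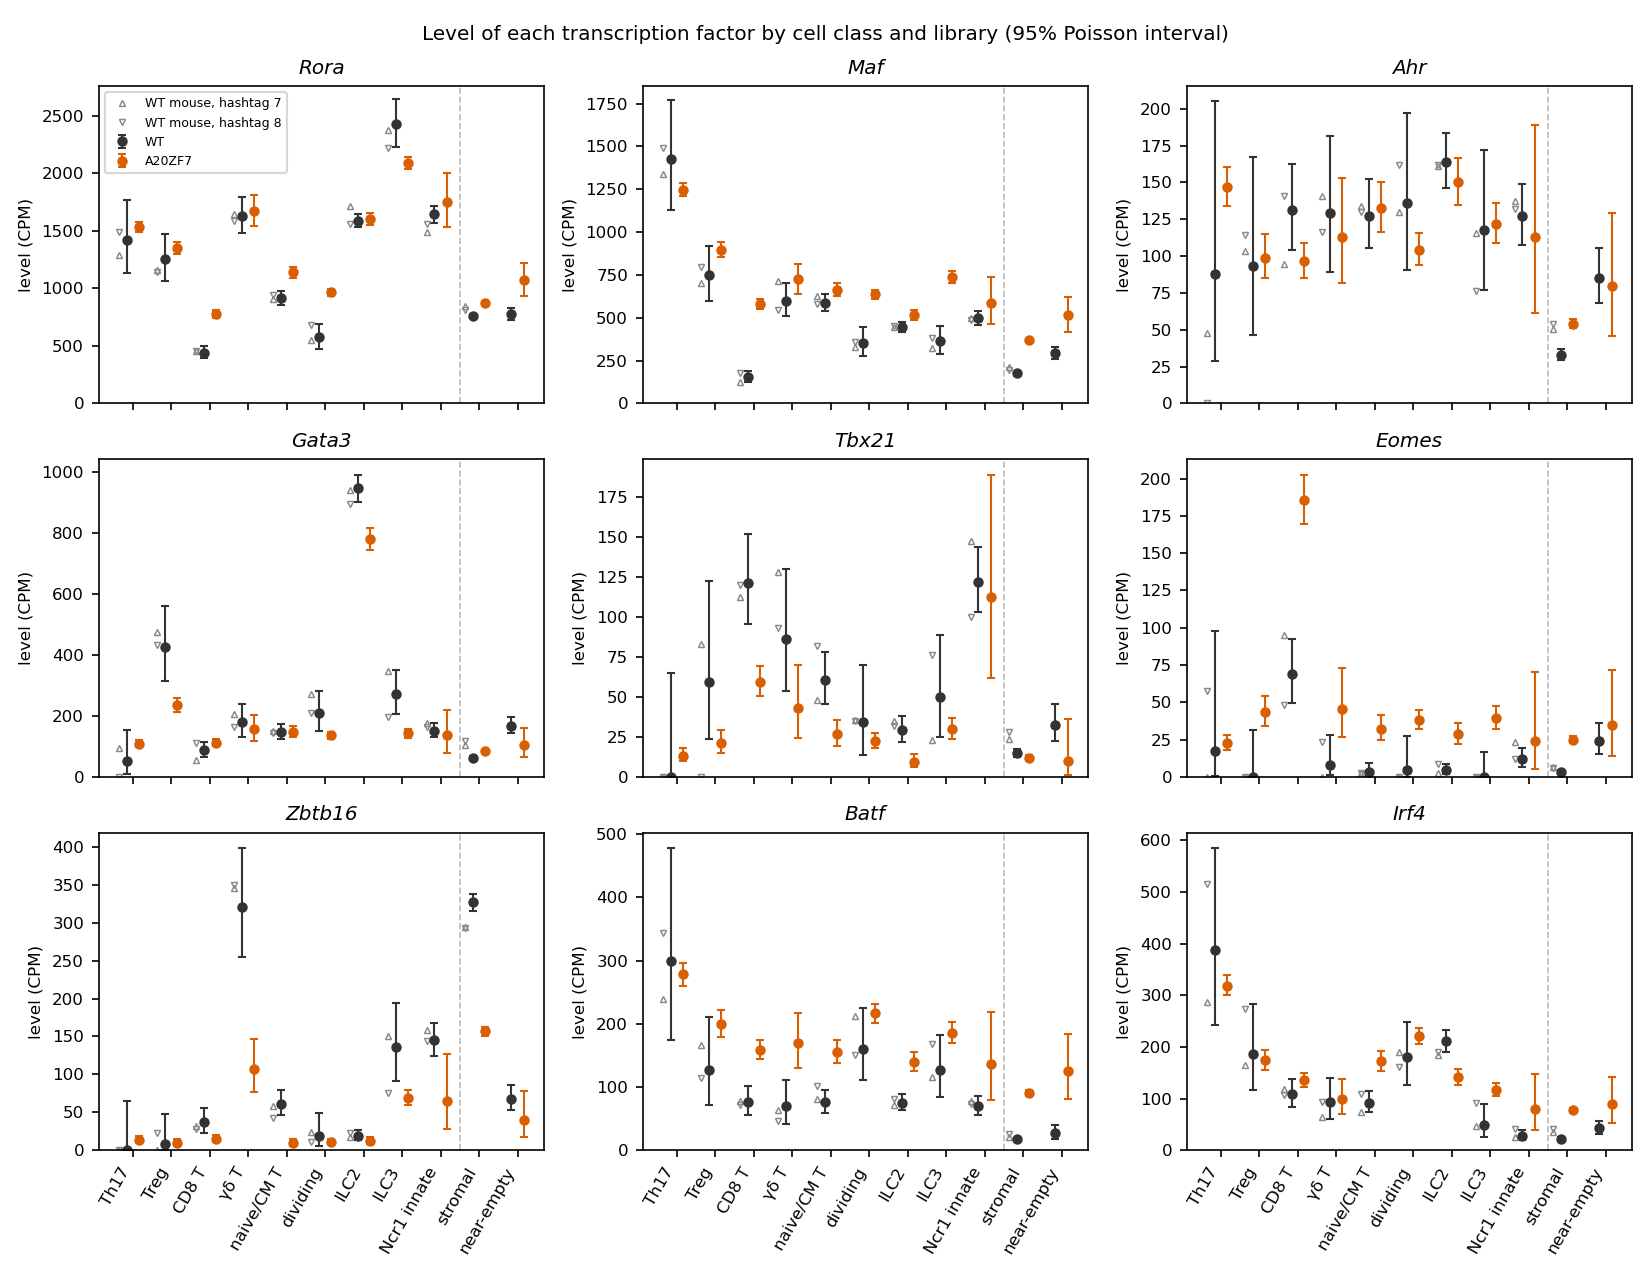
Level of each factor in CPM (vertical axis) in 9 lymphocyte classes, stromal cells and near-empty barcodes (horizontal axis), with WT in black, A20ZF7 in orange, 95% Poisson intervals as bars and the 2 WT mice as open triangles. The libraries stand apart for Maf and Eomes in CD8 T-like cells and for Zbtb16 in γδ T-like cells, where neither WT mouse lies in the A20ZF7 interval.

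Rora was the most widely held of the type 3 and ILC factors. RORα is a nuclear receptor needed for ILC2 development and shared by Th17 cells and ILC3s. Its gene lies on chr9:68653786-69388246. In both libraries ILC3-like cells held the highest level, at 2433 CPM (2232–2648) in WT and 2091 (2036–2147) in A20ZF7, and CD8 T-like cells the lowest. The 3 classes after ILC3-like cells, Ncr1 innate, γδ T-like and ILC2-like cells, lay between 1590 and 1645 CPM in WT and did not differ beyond their intervals. Rora was 1424 CPM in WT and 1532 in A20ZF7 Th17-like cells, a ratio of 1.08 (0.863–1.36), and 1590 and 1606 CPM in ILC2-like cells, a ratio of 1.0105 (0.962–1.06). The ratio was above 1 in CD8 T-like cells, from 443 to 777 CPM (1.75, 1.55–1.997), and below 1 in ILC3-like cells (0.859, 0.786–0.941). The WT mice gave 457 CPM each in CD8 T-like cells, and 2375 and 2223 CPM in ILC3-like cells, so the CD8 T-like levels of both mice lay below that of A20ZF7 and the ILC3-like levels of both above. Stromal cells held 762 CPM in WT and 874 in A20ZF7 and near-empty barcodes 776 and 1072 CPM. The CD8 T-like level was thus below both backgrounds in each library and is not read as expression, and so was the level of WT dividing cells (574 CPM).

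Maf followed Th17-like cells in level and CD8 T-like cells in change. c-MAF is a basic leucine zipper factor that supports Il10 and helps to maintain Th17 cells, intestinal Treg cells and γδ T cells. The gene lies on chr8:115682942-115707794. Th17-like cells held 1424 CPM (1131–1770) in WT and 1246 (1209–1285) in A20ZF7, the highest level in each library and a ratio of 0.875 (0.702–1.104). In CD8 T-like cells Maf went from 154 CPM (124–187) in WT, the lowest of its 9 classes, to 579 (550–609) in A20ZF7, a ratio of 3.77 (3.07–4.68), and the WT mice held 123 and 179 CPM. After each cell was thinned to 500 UMIs, which left out no WT and 4493 A20ZF7 lymphocytes, 5.66% of WT and 24.1% of A20ZF7 CD8 T-like cells held a Maf UMI (unthinned 11.9% and 30.3%), while stromal cells went from 7.85% to 15.5%. The WT share in CD8 T-like cells was thus below the stromal share and is read as background, and the A20ZF7 share was above it. Near-empty barcodes, however, held 295 CPM of Maf in WT and 514 in A20ZF7 (1.74, 1.38–2.19). The WT CD8 T-like level was below this background and the A20ZF7 level of 579 CPM only a little above it. The part of this background in the CD8 T-like ratio was not tested. ILC3-like cells went from 362 to 738 CPM, a ratio of 2.04 (1.63–2.58), with 324 and 381 CPM in the WT mice. The stromal level moved by a similar ratio, from 175 to 370 CPM (2.11, 2.01–2.23), and its part in the ILC3-like ratio was not tested. With the stromal ratio divided out, Maf gave 1.78 in CD8 T-like cells and 0.965 in ILC3-like cells, and the ratio in CD8 T-like cells was 1.39 at a coarser clustering and 1.67 in cells of at least 1000 UMIs. Against the WT mouse of hashtag 8 alone the ILC3-like ratio was 1.94.

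Ahr varied less across the classes than the other factors of type 3 cells. AHR is a ligand-activated factor that senses dietary and microbial compounds and drives Il22 in Th17 cells and ILC3s. The gene lies on chr12:35497974-35535038. ILC2-like cells held the highest level, 164 CPM (146–184) in WT and 150 (135–167) in A20ZF7, and no class differed from the next in order beyond its interval in either library. Further apart in the order, A20ZF7 ILC2-like and Th17-like cells (150 and 147 CPM) held more than A20ZF7 CD8 T-like and Treg-like cells (96.5 and 99.04 CPM), with intervals that did not overlap. The ratio ran from 0.736 in CD8 T-like cells (0.572–0.956, from 131 to 96.5 CPM) to 1.67 in Th17-like cells, where WT held 5 UMIs and the interval was 0.711 to 5.17. Stromal cells held 33.1 CPM in WT and 54.2 in A20ZF7, below every class of their library, while near-empty barcodes held 85.1 and 79.8 CPM, close to WT Th17-like (87.9 CPM) and Treg-like cells (93.5 CPM). Of 6 genes listed for the AHR response, 2 were well counted in a class, Tiparp, which feeds back on the receptor, and Arnt, its partner. Of their 17 pairs of a gene and a class none was at least 2-fold higher and 1 was lower. This was Tiparp in Th17-like cells, at 229 CPM in WT, from 13 UMIs, and 107 in A20ZF7 (0.468, 0.270–0.888). Over all genes and classes 2.75% of pairs were higher and 2.05% lower, and 1 pair is no result about the list.

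Gata3 marked ILC2-like cells in both libraries. GATA3 is the zinc finger factor of ILC2s and Th2 cells and is also used by Treg cells. Its gene lies on chr2:9857078-9890034. The ILC2-like level was 946 CPM (902–992) in WT and 779 (743–816) in A20ZF7, a ratio of 0.823 (0.770–0.880), and the WT mice held 940 and 896 CPM. Treg-like cells were next in both libraries and went from 425 to 236 CPM (0.555, 0.413–0.759), and ILC3-like cells went from 271 to 143 CPM (0.528, 0.401–0.705). Neither was past 2-fold, and the WT mice held 477 and 433 CPM in Treg-like cells and 348 and 198 in ILC3-like cells, all above the A20ZF7 level. After thinning, 36.9% of WT and 31.9% of A20ZF7 ILC2-like cells held a Gata3 UMI (unthinned 60.4% and 49.5%), against 2.14% and 3.64% of stromal cells. The 2 backgrounds moved apart. The stromal level was higher in A20ZF7 (63.2 against 85.1 CPM), opposite to these 3 classes. Near-empty barcodes went from 168 CPM in WT to 105 in A20ZF7 (0.623, 0.375–0.983), in the same direction as these 3 classes. The part of background in these ratios was not tested.

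Within ILC2-like cells the ratios depended on the cluster. Cluster 7 held most WT ILC2-like cells (1247 of 1648) and cluster 4 most A20ZF7 ones (2235 of 2284), so a pooled ratio compared different clusters. This holds for every pooled ILC2-like ratio given here, also those of other genes. In cluster 4 Gata3 was 1168 CPM in WT and 777 in A20ZF7 (0.665, 0.600–0.739) and Rora 2263 and 1617 CPM (0.715, 0.664–0.770). In cluster 7, with 49 A20ZF7 cells, the Gata3 ratio was 0.959 (0.703–1.28) and the Rora ratio 0.844 (0.651–1.08). Irf4 went the opposite way to its pooled ratio in cluster 4, from 50.7 to 141 CPM (2.78, 1.77–4.61), and not in cluster 7 (0.624, 0.283–1.197).

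The T-box factors lay on opposite sides of 1 in the same CD8 T-like cells. T-bet drives interferon-γ and the type 1 program, and EOMES is its close relative in memory CD8 T cells and NK cells. Tbx21 lies on chr11:97098071-97115331 and Eomes on chr9:118478212-118486132. Tbx21 went from 122 CPM (95.8–152) in WT to 59.5 (50.6–69.6) in A20ZF7 CD8 T-like cells, a ratio of 0.490 (0.370–0.653), with 113 and 120 CPM in the WT mice. Eomes went from 68.8 CPM (49.8–92.6) to 185 (169–203), a ratio of 2.70 (1.97–3.78), with 94.95 and 48.1 CPM in the WT mice, which stood further apart from each other than for Tbx21 but both below A20ZF7. After thinning, 4.43% of WT and 2.82% of A20ZF7 CD8 T-like cells held a Tbx21 UMI (unthinned 10.4% and 4.15%) and 3.21% and 8.02% an Eomes UMI (unthinned 5.81% and 12.2%), against stromal shares of 0.535% and 0.472% for Tbx21 and 0.0802% and 1.04% for Eomes. Near-empty barcodes went from 32.4 to 9.97 CPM of Tbx21 (0.308, 0.0357–1.21, from 32 and 2 UMIs). Their Eomes level was 24.3 CPM in WT and 34.9 in A20ZF7 (1.44, 0.522–3.43). Both backgrounds moved in the direction of the CD8 T-like ratios, and their part in these ratios was not tested.

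Outside CD8 T-like and WT Ncr1 innate cells the T-box genes were thinly counted. Tbx21 in γδ T-like cells still met the limits of a well-counted pair. Its level there was 86.1 CPM in WT and 43.1 in A20ZF7 (0.5003, 0.246–0.997, from 22 and 16 UMIs), just within 2-fold. Tbx21 in WT Ncr1 innate cells did not differ from WT CD8 T-like cells beyond counting error, at 122 CPM in WT and 113 in A20ZF7 (0.923, 0.492–1.60, from 146 and 14 UMIs). It was lower in A20ZF7 in Treg-like (59.5 and 21.1 CPM, 0.354), naive or central memory T-like (60.4 and 26.6 CPM, 0.441) and ILC2-like cells (29.1 and 9.54 CPM, 0.328), where the mean level was under 50 CPM and the A20ZF7 ILC2-like level lay below that of stromal cells (11.8 CPM, 14.9 in WT). The WT ILC2-like level also lay below that of WT near-empty barcodes (32.4 CPM). At a finer clustering the naive or central memory T-like ratio was 1.47 (0.454–7.52). In Th17-like cells no Tbx21 UMI was counted among 65 WT cells, and A20ZF7 held 13.3 CPM, near its stromal level. The floor of 3 UMIs is 52.8 CPM in these WT cells and is not an upper limit. Eomes was at 3 UMIs in WT naive or central memory T-like cells (3.18 CPM) and at 58 in A20ZF7 (32.2 CPM), a ratio of 10.1 (3.29–50.5), and at 8 and 66 UMIs in ILC2-like cells, a ratio of 6.52 (3.12–15.7). In ILC3-like cells WT had no Eomes UMI in 217 cells and A20ZF7 39.2 CPM, at least 2.89-fold higher against a floor of 3 WT UMIs. The A20ZF7 levels of Eomes in the 8 classes other than CD8 T-like cells ran from 22.6 to 45.8 CPM beside 24.8 in A20ZF7 stromal cells, which had held 3.14 in WT (7.91, 5.50–11.8). These small levels are therefore near the background of their own library and are not read as expression. The WT levels in naive or central memory T-like and ILC2-like cells lay below the 24.3 CPM of WT near-empty barcodes. With the stromal ratio divided out, the CD8 T-like ratio of Eomes became 0.341 (0.249–0.477). This interval takes the stromal ratio as fixed and leaves out its counting error, so it is too narrow. With the stromal level taken off in each library the CD8 T-like ratio was 2.45, and against the WT mouse of hashtag 7 alone it was 1.95.

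The genes that T-box factors control did not move as 1 group. Most of those listed, among them Xcl1, Ifng, Gzmb and Ccl5, were also markers used to name classes, so they are not independent of the classes. Of 51 pairs of a T-box target and a class, 9 were at least 2-fold higher and 9 at least 2-fold lower, where over all genes and classes 2.75% were higher and 2.05% lower. The chemokine gene Xcl1 was 659 CPM in WT and 88.5 in A20ZF7 CD8 T-like cells (0.134, 0.114–0.158). The interferon-γ gene, Ifng, was 125 and 57.7 CPM in naive or central memory T-like cells (0.461, 0.351–0.605). At a finer clustering 774 of the 1076 WT cells of that class were Th1 or NKT-like, against 370 of 2743 in A20ZF7. The Ifng ratio thus compared different mixtures of cells. The granzyme gene Gzmb was 35.2 and 272 CPM in γδ T-like cells (7.72, 3.91–17.4), beside 37.1 and 185 CPM in stromal cells. The chemokine gene Ccl5 was 809 and 2338 CPM in ILC2-like cells (2.89, 2.73–3.06), beside 516 and 2214 CPM in stromal cells, higher in A20ZF7 in both.

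**Figure D2:**
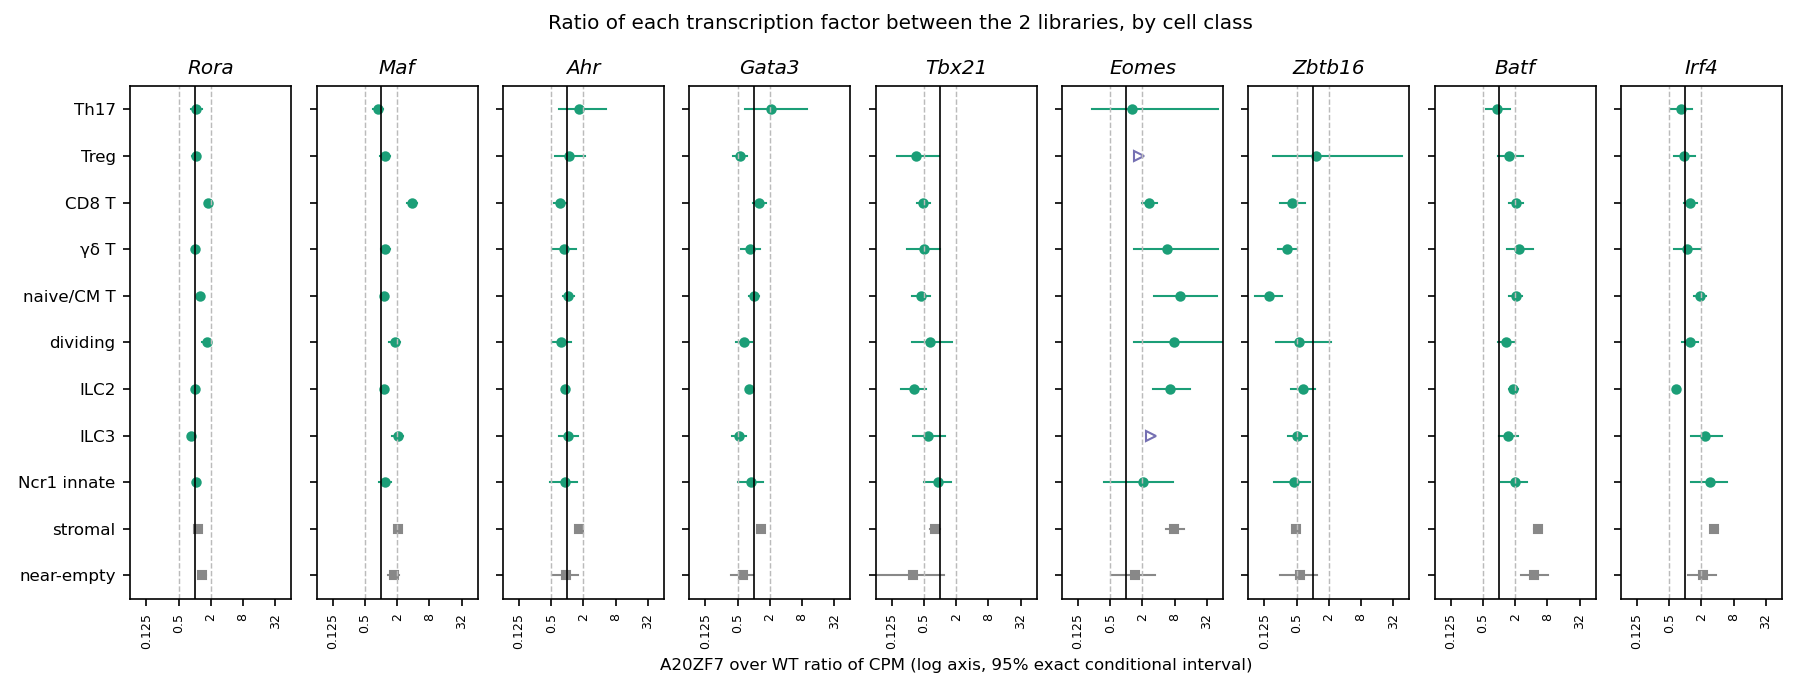
Ratio of CPM in A20ZF7 over WT (horizontal log axis) by class (vertical axis) for each factor, with 95% exact conditional intervals cut at the edges of the panel, dashed lines at 0.5 and 2, grey squares for stromal cells and near-empty barcodes, and open triangles for lower bounds where WT had no UMI. Tbx21 and Zbtb16 lie left of 1 and Eomes and Batf right of it in most classes, and the stromal squares of Batf and Irf4 lie right of every lymphocyte class.

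Among the lymphocyte classes Zbtb16 was highest in γδ T-like cells, and it was lower in A20ZF7 both there and in stromal cells. PLZF is a zinc finger factor that gives NKT cells, innate-like γδ T cells and ILC precursors their rapid effector function. The gene lies on chr9:48654297-48836222. In γδ T-like cells Zbtb16 went from 321 CPM (255–398) to 108 (76.9–147), a ratio of 0.336 (0.224–0.495), with 346 and 349 CPM in the WT mice. It was 145 and 64.4 CPM in Ncr1 innate cells (0.445, 0.189–0.897, from 173 and 8 UMIs), 136 and 69.3 CPM in ILC3-like cells (0.511, 0.346–0.779) and 61.5 and 9.43 CPM in naive or central memory T-like cells (0.153, 0.0837–0.267). After thinning, 14.1% of WT and 6.98% of A20ZF7 γδ T-like cells held a Zbtb16 UMI (unthinned 24.1% and 7.95%). The stromal shares were 14.9% and 7.92%, so the γδ T-like share was not above the stromal share in either library. Stromal cells held 327 CPM in WT and 157 in A20ZF7 (0.480, 0.457–0.505), above the near-empty barcodes (67.9 and 39.9 CPM) and above every lymphocyte class of their library but WT γδ T-like cells, which did not differ from them beyond counting error. Both WT mice held more in γδ T-like than in stromal cells (294 and 293 CPM). With the stromal ratio divided out, Zbtb16 gave 0.699 in γδ T-like and 0.927 in Ncr1 innate cells, no longer past 2-fold. The same direction in stromal cells and lymphocytes was measured, and whether they share a source was not tested. With classes drawn from marker UMIs cell by cell, the Ncr1 innate ratio was 2.07 (0.709–6.17), and with the 9 genes allowed in clustering it was 1.098 (0.663–1.73), so Ncr1 innate cells give no firm direction for Zbtb16.

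The naive or central memory class was mixed, which touches its pooled ratios. At a finer clustering it split mainly into a Th1 or NKT-like group (774 WT and 370 A20ZF7 cells) and a naive group (225 and 1736 cells). Smaller groups included Th17-like (21 and 311 cells), CD8 T-like (23 and 166) and dividing cells (9 and 49). The A20ZF7 Th17-like group held 184 CPM of Batf and 265 of Irf4, against 155 and 172 CPM in the whole class. The part of these groups in the pooled ratios was not tested. In the Th1 or NKT-like group Zbtb16 was 72.6 CPM in WT and 12.2 in A20ZF7 (0.169, 0.0336–0.522, from 49 and 3 UMIs) and Tbx21 74.1 and 40.8 CPM (0.551, 0.249–1.099). In the naive group Zbtb16 gave 0.281 (0.0809–1.09, from 5 and 8 UMIs) and Tbx21 1.93 (0.474–16.9, from 2 and 22 UMIs). Ahr, within 2-fold in each of the 9 classes, was 57.2 CPM in WT and 117 in A20ZF7 in the naive group (2.04, 1.103–4.19, from 11 WT UMIs). Irf4 gave 2.104 (1.22–3.93) and Maf 1.81 in the naive group, and Batf gave 2.02 (1.25–3.24) and Eomes 9.64 (1.83–95.1, from 2 and 7 UMIs) in the Th1 or NKT-like group. The NK receptor gene Klrb1c, 1 of the genes linked to PLZF, was 111 CPM in WT and 371 in A20ZF7 Ncr1 innate cells (3.33, 2.33–4.69). Klrb1c was also on a marker list that named this class, so it is not independent of it. Tox, a factor of innate-like and chronically stimulated T cells, was 248 CPM in WT and 644 in A20ZF7 CD8 T-like cells (2.60, 2.20–3.08). Of 55 pairs of a PLZF-linked gene and a class, 5 were at least 2-fold higher and 1, Tcf7 in ILC3-like cells, lower (271 and 101 CPM, 0.373). Over all genes and classes 2.75% of pairs were higher and 2.05% lower.

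Batf and Irf4 shared their first class, and the background of both was higher in A20ZF7. BATF is an AP-1 factor without an activation domain of its own, and IRF4 is an interferon regulatory factor that rises with antigen receptor signal strength. Batf lies on chr12:85686669-85709087 and Irf4 on chr13:30749226-30766976. Both were highest in Th17-like cells, Batf at 299 CPM (174–479) in WT and 278 (260–297) in A20ZF7 (0.930, 0.578–1.60) and Irf4 at 387 CPM (242–586) and 319 (300–339) (0.824, 0.541–1.32). In WT the Batf level did not differ from that of dividing cells (160.5 CPM) beyond its interval. Neither factor differed between the libraries in Th17-like cells beyond counting error, with 17 and 22 UMIs behind the WT values.

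In the 8 other classes the Batf ratio was above 1 and in 3 of them past 2-fold, while the interval held 1 in Treg-like (1.57, 0.937–2.83) and dividing cells (1.35, 0.952–1.97). CD8 T-like cells went from 76.8 to 159 CPM (2.07, 1.53–2.85), γδ T-like cells from 70.4 to 170 (2.41, 1.41–4.32) and naive or central memory T-like cells from 76.3 to 155 (2.03, 1.56–2.67). The WT mice held 77.4 and 72.2 CPM in CD8 T-like cells. Stromal cells, however, went from 17.2 to 90.5 CPM (5.26, 4.49–6.19) and near-empty barcodes from 27.4 to 125 CPM (4.56, 2.54–8.16), a larger ratio than in any of the 9 classes. After thinning, 7.78% of A20ZF7 CD8 T-like cells held a Batf UMI (5.35% in WT, unthinned 10.8% and 7.19%) against 3.67% of A20ZF7 stromal cells (0.936% in WT). Of 116 thinned A20ZF7 Ncr1 innate cells 2.59% did, a share not above the stromal one. Their level of 137 CPM, from 17 UMIs, lay above the stromal level and near that of near-empty barcodes. Batf in A20ZF7 Ncr1 innate cells is therefore not read as expression. With the stromal ratio divided out, all 3 Batf pairs past 2-fold turned lower, at 0.387 to 0.458. That setting was chosen after the data had been seen. With the near-empty level scaled by the immunoglobulin gene Igha taken off, 0 of the 21 pairs past 2-fold turned direction and 19 stayed past 2-fold. With the stromal level taken off whole, 1 of 17 turned, Irf4 in Ncr1 innate cells, and 7 stayed past 2-fold. The 3 Batf pairs were not among these 7, though they stayed above 1. The direction of these 3 Batf pairs thus depends on whether the stromal ratio is divided out, and their size on whether the stromal level is taken off.

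Irf4 ratios lay on both sides of 1, and the ILC2-like ratio depended on the cluster. Pooled over ILC2-like cells Irf4 was lower in A20ZF7, at 211 CPM (190–233) in WT and 141 (126–158) in A20ZF7 (0.671, 0.577–0.779), with 184 and 190 CPM in the WT mice. Within cluster 4, with most A20ZF7 cells, it was higher (2.78, 1.77–4.61). Within cluster 7, with most WT cells, the interval held 1 (0.624, 0.283–1.197). The pooled value is thus not read as a fall within ILC2-like cells. Irf4 was higher in ILC3-like cells, from 49.8 to 117 CPM (2.35, 1.29–4.75, from 11 WT UMIs), in naive or central memory T-like cells, from 92.2 to 172 (1.86, 1.46–2.39), and in Ncr1 innate cells, from 27.6 to 80.6 (2.92, 1.28–6.06, from 33 and 10 UMIs). Near-empty barcodes went from 42.6 to 89.8 CPM (2.11, 1.14–3.75), near the ILC3-like levels and by a similar ratio. The part of background in the ILC3-like ratio was not tested. The A20ZF7 Ncr1 innate level matched that of A20ZF7 stromal cells (78.6 CPM, 22.5 in WT) and is not read as expression, and without the WT mouse of hashtag 7 the ILC3-like ratio was 1.28. After thinning, 8.68% of WT and 6.54% of A20ZF7 ILC2-like cells held an Irf4 UMI (unthinned 15.4% and 11.4%), above stromal shares of 0.936% and 3.24%. Of 64 pairs of an AP-1 or IRF partner and a class none was at least 2-fold higher and 4 were lower, among them Batf3 in ILC3-like cells (172 and 43.3 CPM, 0.252), and Fos (1551 and 735 CPM, 0.474) and Fosb (671 and 312 CPM, 0.466) in ILC2-like cells. The shares over all genes and classes were 2.75% higher and 2.05% lower.

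**Figure D3:**
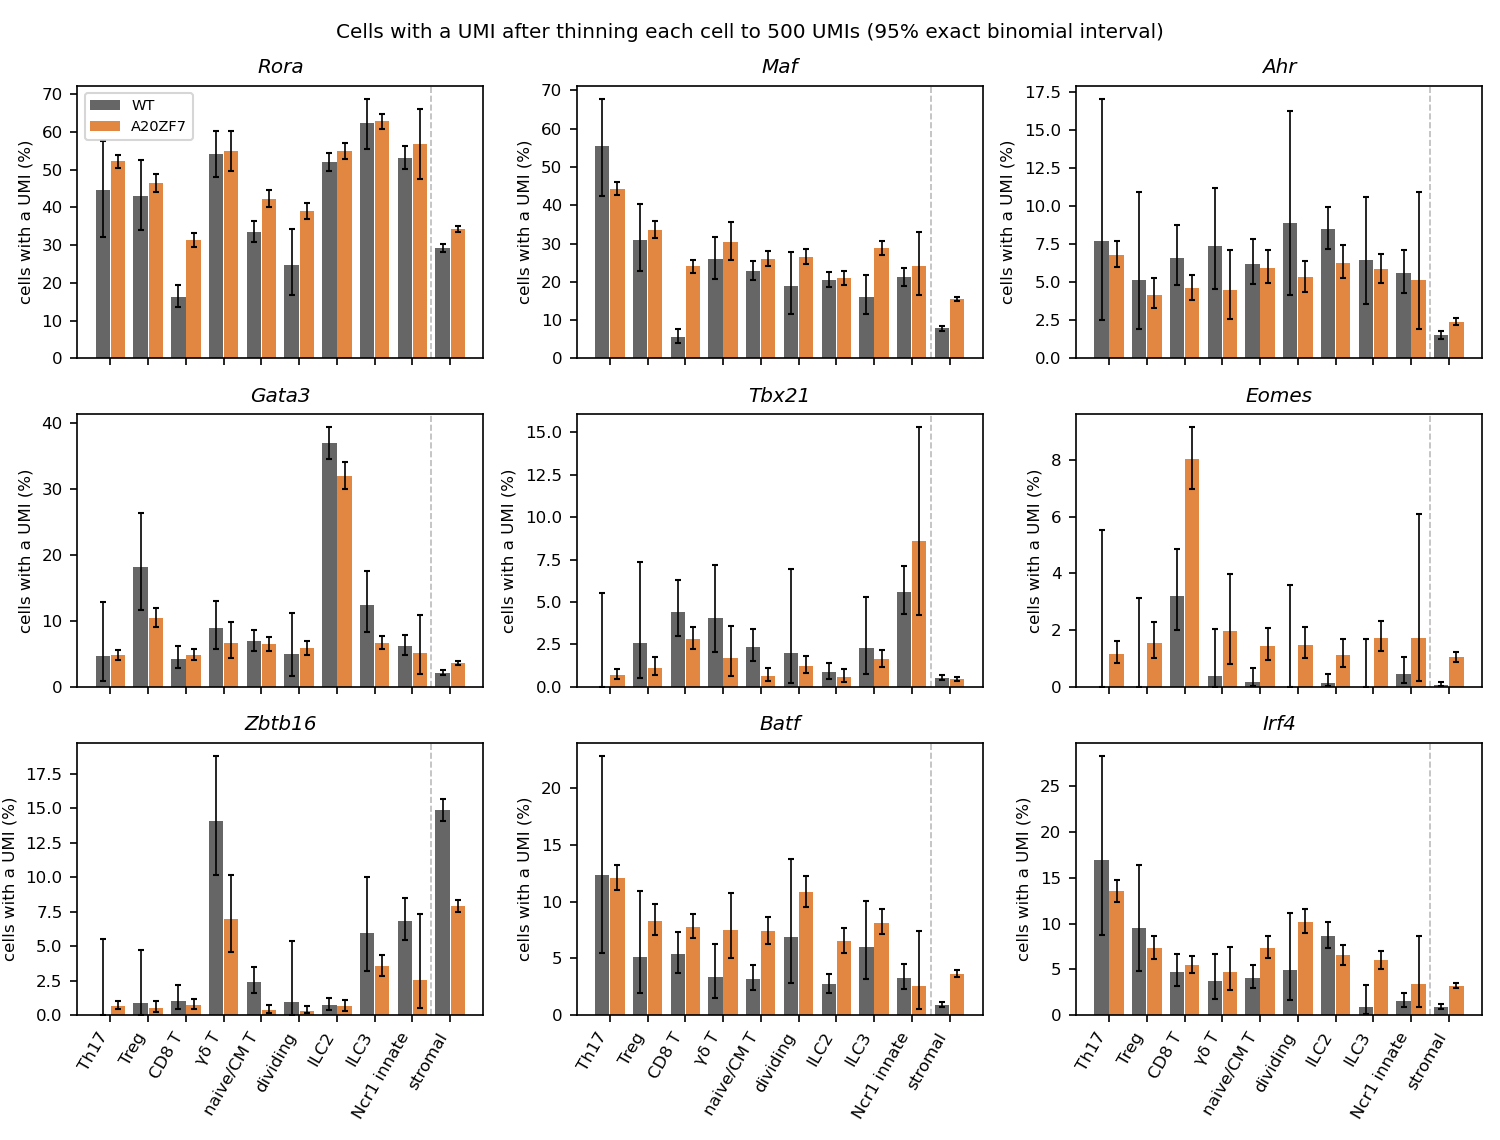
Share of cells with a UMI of each factor (vertical axis, percent) by class after every cell was thinned to 500 UMIs, with 95% exact binomial intervals as bars, WT in grey and A20ZF7 in orange, and stromal cells right of the dashed line. Cells under 500 UMIs are left out, and the stromal bars show Batf at 0.936% in WT and 3.67% in A20ZF7 and Zbtb16 at 14.9% and 7.92%.

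The background moved with the genotype. Stromal cells of the A20ZF7 library held more RNA of lymphocyte genes: Cd3e, a subunit of the T cell receptor complex, was 81.6 CPM in WT and 270 in A20ZF7 (3.31, 3.07–3.56), the leukocyte gene Ptprc 151 and 384 CPM (2.55, 2.41–2.70), and the list of 6 T cell genes summed to 284 and 919 CPM. Of the 6 factors well counted in stromal cells, 3 were at least 2-fold higher and 1 lower, against 4.99% and 3.65% of 3726 genes. The ratio in a lymphocyte class was above the stromal ratio of the same gene in 0 of 9 classes for Batf and for Irf4, in 1 of 9 for Maf, Ahr and Gata3, in 3 of 9 for Rora, in 1 of 3 for Tbx21 and Zbtb16, and in 0 of 1 for Eomes. The dividing class also carried mast cell RNA, with a summed mast cell list of 3146 CPM in WT and 114 in A20ZF7, beside Rora at 574 and 965 CPM (1.68, 1.40–2.04) and Maf at 355 and 637 CPM (1.79, 1.42–2.30), and its part in those ratios was not tested.

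A ratio over all lymphocytes mixes the level within a class with the share of each class. When the A20ZF7 class levels were weighted by the WT class shares, Gata3 went from a pooled ratio of 0.520 (0.494–0.547) to 0.838 (0.783–0.896) and Tbx21 from 0.384 (0.335–0.440) to 0.633 (0.462–0.868). In the main setting the remainder of the pooled difference stood in the class shares. Across 15 other settings the ratio at WT class shares ran from 0.314 to 0.948 for Tbx21 and from 0.748 to 1.13 for Gata3. Ncr1 innate cells carried 22.0% of the WT weight, and Tbx21 there rests on 14 A20ZF7 UMIs. Maf went from 1.65 to 1.30 (1.21–1.39), Irf4 from 1.495 to 1.07 (0.948–1.21; 0.545 with the stromal level taken off and 1.59 in cells of at least 1000 UMIs) and Batf from 2.37 to 1.84 (1.61–2.12). Eomes remained highest at 3.64 (2.77–4.78) and Zbtb16 lowest at 0.407 (0.288–0.576). Across the other settings Eomes ran from 2.28 to 4.67 and Zbtb16 from 0.254 to 0.691. The Eomes value includes classes whose levels are not read as expression. Zbtb16 in Ncr1 innate cells rests on 8 A20ZF7 UMIs. Rora had the pooled ratio nearest to 1, 1.007, and gave 1.08 (1.04–1.13) at WT class shares, and Ahr gave 0.874 and 0.914 (0.799–1.05).

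**Figure D4:**
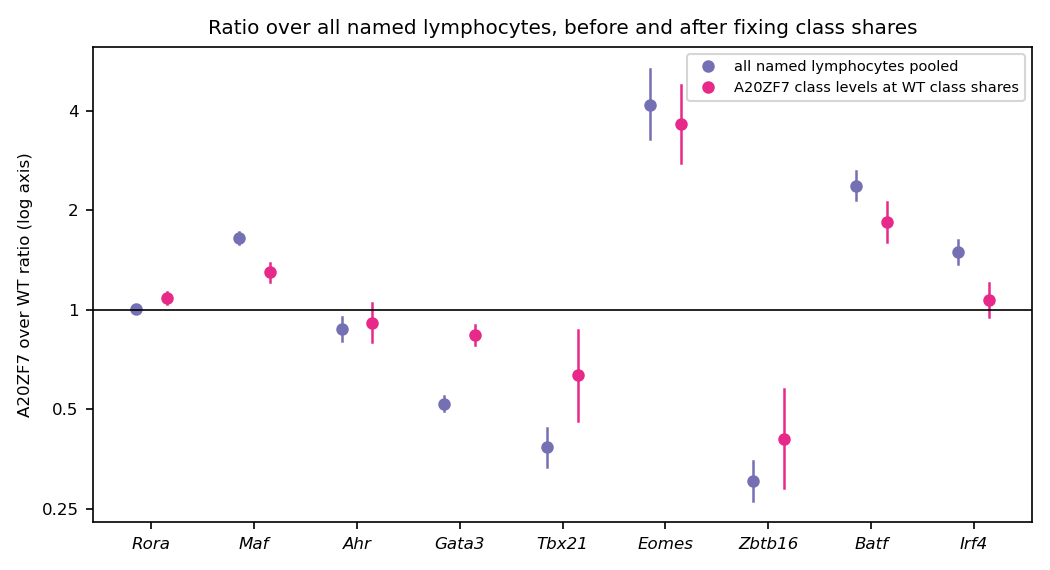
Ratio of A20ZF7 over WT (vertical log axis) for each factor over all named lymphocytes pooled (purple) and with A20ZF7 class levels weighted by WT class shares (pink), with 95% intervals for counting error. Gata3 moves from 0.520 to 0.838 and Irf4 from 1.495 to 1.07, toward 1, while Eomes and Zbtb16 stay farthest from it.

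The share of a factor's UMIs in each class changed with the genotype, and so did the size of the classes. In WT 75.0% of lymphocyte Gata3 UMIs lay in ILC2-like cells and in A20ZF7 43.9%, while ILC2-like cells were 31.4% of named lymphocytes in WT and 10.9% in A20ZF7. Irf4 UMIs lay mostly in ILC2-like cells in WT (55.8%) and were led by Th17-like cells in A20ZF7 (30.03%). The leading class of Maf was ILC2-like in WT (32.1%) and Th17-like in A20ZF7 (29.0%). That of Zbtb16 was Ncr1 innate (42.6%) and ILC3-like (43.6%). Eomes kept CD8 T-like cells as its main class, with 59.7% and 47.5%. Over all genes, the Th17-like part of lymphocyte UMIs rose from 1.04% to 17.8% and the ILC3-like part from 4.06% to 14.3%. The ILC2-like part fell from 33.5% to 12.4% and the Ncr1 innate part from 22.0% to 0.667%. Since ILC3s can lie in both ILC3-like and Ncr1 innate cells, the larger ILC3-like part is not read as a rise of ILC3s. Within classes, the Maf ratio was 0.875 (0.702–1.104) in Th17-like cells and the Zbtb16 ratio 0.511 in ILC3-like cells. A change of leading class is thus not read as a rise of the factor there.

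**Figure D5:**
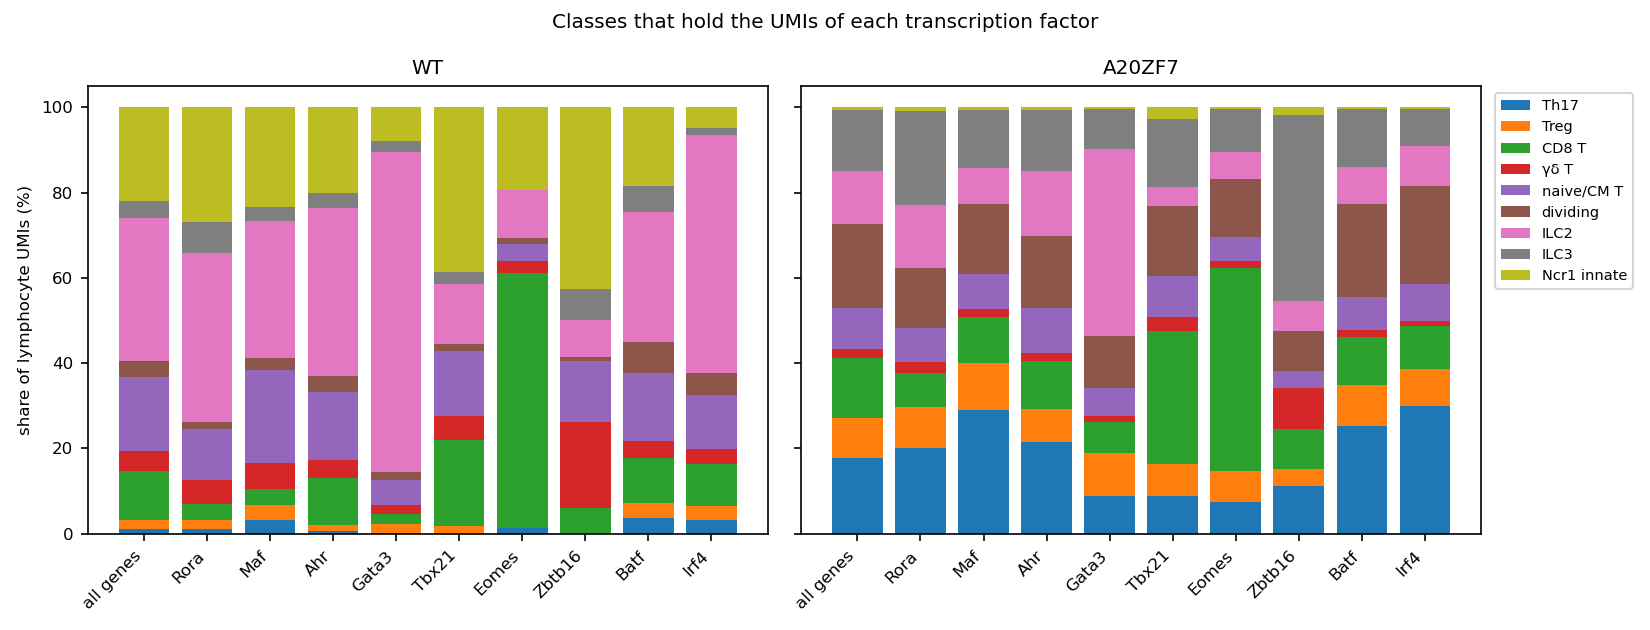
Share of the lymphocyte UMIs of each factor (vertical axis, percent) that lies in each class (colours), WT left and A20ZF7 right, beside the share of all genes in the first bar. ILC2-like cells hold 75.0% of Gata3 UMIs in WT and 43.9% in A20ZF7.

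Genes with levels most like each factor were sought over the 18 values of 9 classes in 2 libraries, which share libraries, depth and background, among 2581 genes. The highest Pearson r on log2 CPM were 0.94 for Zbtb16 with Slc7a6os and with Rbpms2, followed by 0.93 for Maf with Map3k5, 0.92 for Rora with Emb, 0.92 for Tbx21 with Osgin1 and 0.91 with Ctsw, which encodes a cathepsin of cytotoxic cells. Eomes was nearest to Plekha2 (0.84), Ly6c2 (0.83) and Gzmk (0.83), the granzyme of memory CD8 T cells. Gata3 was nearest to Gpx4 (0.91) and Lgmn (0.90), Batf to Traf3 (0.91), Arf5 (0.89) and Ccl20 (0.87), and Irf4 to Fam3c (0.91) and Aebp2 and Hif1a (both 0.86). Ahr had no near match, with 0.70 for Il4.

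Other genes of the same programs were counted in lists, against 2.75% of pairs higher and 2.05% lower over all genes and classes. Their ILC2-like ratios compare mostly cluster 7 in WT with cluster 4 in A20ZF7, and Il13 was the leading gene of cluster 7. Differences between these clusters and between genotypes were not told apart for the listed genes. Areg, Il5 and Il13 were also on the marker list that named ILC2-like cells, so they are not independent of that class. Of 19 pairs of a type 2 gene downstream of GATA3 and a class, 6 were at least 2-fold higher and 6 lower. Those higher were all Areg, the tissue repair ligand amphiregulin, which was 386 and 1093 CPM in ILC2-like cells (2.83, 2.60–3.08) and 46.0 and 256 CPM in stromal cells, and those lower included the ILC2 cytokine genes Il5 (115 and 18.6 CPM, 0.162) and Il13 (706 and 264 CPM, 0.374) in ILC2-like cells. Of 23 pairs of a gene downstream of MAF and a class, 1 was higher, Prdm1 in ILC3-like cells (27.1 and 81.7 CPM, 3.01, 1.36–8.30), and 1 lower, Il4 in dividing cells (72.9 and 29.2 CPM, 0.3997), which is near the share over all genes and no result about the list. Of 24 pairs of a clock gene that RORα controls, none was higher and 2 were lower, Npas2 in ILC3-like cells (76.9 and 30.1 CPM, 0.392) and Nr1d1 in γδ T-like cells (121 and 51.2 CPM, 0.422). Among 168 pairs of another lymphocyte transcription factor, 13 were higher and 2 lower, with Zeb2, a partner of T-bet in terminal effector cells, at 35.2 and 237 CPM in γδ T-like cells (6.73, 3.39–15.2) and 640 and 605 CPM in stromal cells, Satb1 at 109 and 355 CPM (3.27, 2.80–3.84) and Rbpj at 570 and 171 CPM (0.300, 0.267–0.337) in ILC2-like cells, and Hif1a at 170 and 381 CPM in CD8 T-like cells (2.25, 1.84–2.77).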

How the data were processed

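UMI counts per gene and barcode were deposited by the authors for each gene expression library, unfiltered, and the submitters' processing notes name Cell Ranger 7.1, R 4.3.3, Seurat 4.3 and the build mm10, while the headers of the gene expression files name Cell Ranger 8.0.0. The gene lists of the files differ, with 1746 gene IDs found in WT alone and 335 in A20ZF7 alone, so shared IDs were used, and whether the libraries were counted with different references, and its part in the ratios, was not tested. A level is a share of the UMIs of a class, so a gene can fall when others rise. The antibody files given for A20ZF7 were identical to those of WT, so hashtags were used for WT alone and the A20ZF7 mice were not told apart.

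Python 3.11.15 (scipy 1.17.1, pandas 2.3.3, numpy 2.4.6) read the counts. Cells passed a UMI threshold (675 in WT, 396 in A20ZF7, by Cell Ranger's order of magnitude rule) and the study's limits of 200 to 2500 genes and 15% mitochondrial counts, which left 14734 WT cells with 20291619 UMIs and 43218 A20ZF7 cells with 46174742. WT barcodes with 2 hashtags were removed as doublets, and Scrublet (scanpy 1.11.5) served as an alternative. Clustering (R 4.3.3, Seurat 5.3.0) used 2000 variable genes, 30 principal components and resolution 0.8, with cell cycle scores regressed out and the 9 genes left out. Lymphocyte clusters were clustered again and named from marker lists, by limits set after the clusters had been seen, and a class that leading genes of another cell type contradicted took no name.

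Counts were summed per class and library, and no test was run between genotypes. CPM have exact Poisson intervals, shares exact binomial (Clopper-Pearson) intervals and ratios exact conditional intervals, at 95%. A ratio is called past 2-fold when it is at least 2 or at most 0.5 and its interval leaves out 1, and against 0 it is a bound at a floor of 3 UMIs per class and library. The 3 nearest genes per factor have the highest Pearson r of log2(CPM + 20) among genes that reach 100 CPM and 20 UMIs in 1 class and library, without mitochondrial, ribosomal protein, immunoglobulin, receptor segment, sex-linked and Gm or Rik genes. Gene positions come from GENCODE for GRCm38. The ratio step was tested on simulated data. The 9 genes, the gene lists and the classes were chosen with earlier results of these data known. Of the genes near these factors, 1 is not reported here.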

Additional observations from a re-analysis of the deposited data

Results flagged for a closer look

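Rora differed in direction between classes, with a ratio of A20ZF7 over WT of 1.75 (1.55–1.997) in CD8 T-like cells and 0.859 (0.786–0.941) in ILC3-like cells, and the intervals of the 2 lay on opposite sides of 1. Irf4 did so as well, with 2.92 (1.28–6.06) in Ncr1 innate cells and 0.671 (0.577–0.779) in ILC2-like cells. The Rora level of CD8 T-like cells was below that of stromal cells and near-empty barcodes in each library. Neither difference was tested, since there is 1 library per genotype. The A20ZF7 value of Irf4 in Ncr1 innate cells rests on 10 UMIs in 139 cells and is close to the level in stromal cells, and in ILC2-like cells the ratio was 2.78 within cluster 4.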

How the results depend on the processing

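Of the 81 pairs, 13 were at least 2-fold higher and 8 lower in A20ZF7. Apart from pairs of 50 CPM and 20 UMIs, no share over all genes was counted in these settings. Their counts are therefore no result about these factors. With at least 1000 UMIs per cell 4 classes and 35 pairs were left, with 6 higher and 3 lower, and at resolution 0.4 there were 6 classes and 53 pairs, with 7 higher and 5 lower. With up to 5000 genes per cell 4 pairs were lower, after thinning to 500 UMIs 5, and with the stromal level taken off whole 4 pairs were higher. With 1 WT mouse and the WT cells without a hashtag call left out 6 to 8 pairs were higher. Settings chosen after the data had been seen gave 0 higher and 25 lower when ratios were divided by the stromal ratio, taken as fixed, and 8 higher and 3 lower among pairs of 50 CPM and 20 UMIs. Directions turned in these cases, and the cause was not tested. With at least 1000 UMIs the ratio at WT class shares was 0.856 for Rora and 1.13 for Gata3, and Eomes in dividing cells was 0.872. Tbx21 in naive or central memory T-like cells was 1.47 at resolution 1.2. Zbtb16 in Ncr1 innate cells was 1.098 with the 9 genes allowed in clustering and 2.07 with classes from UMI gates, where Irf4 was 0.613. With the stromal level taken off, Irf4 in Ncr1 innate cells was 0.373, and ratios at WT class shares were 0.9497 for Rora, 0.798 for Maf and 0.94996 for Batf. Divided by the stromal ratio, Eomes was 0.341 in CD8 T-like, 0.739 in γδ T-like, 0.985 in dividing, 0.824 in ILC2-like and 0.365 in ILC3-like cells, Batf was 0.393 in CD8 T-like, 0.458 in γδ T-like and 0.387 in naive or central memory T-like cells, Maf was 0.965 and Irf4 0.671 in ILC3-like cells, and Irf4 was 0.834 in Ncr1 innate cells. Tbx21 in CD8 T-like cells stayed between 0.426 and 0.628, and Zbtb16 in γδ T-like cells between 0.260 and 0.699. No paired analysis was possible because there is only 1 library for each genotype, with no number that pairs them. Depth limits Th17-like cells, where 3 of 56867 WT UMIs are 52.8 CPM, and A20ZF7 Ncr1 innate cells, where 3 UMIs are 24.2 CPM.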
